A study of Mus musculus with 24 samples.

Results

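Meis1, Meis2, Meis3, Pbx2 and Pbx3 are 5 of the 21631 protein-coding genes annotated on the mouse build mm10. They were chosen by family, after the combined H3K27ac cover of Meis1 and Meis2 in these data had been seen, and no threshold was set. That cover is therefore given as a description with no test, and p-values of other measures come from fits over all genes. Each peak was assigned to the gene whose span holds its midpoint, or else to the nearest protein-coding gene within 1 Mb. Of 157342 regions of open chromatin merged over 8 ATAC-seq peak lists, 135 went to the 5 genes: 67 to Meis1, 24 to Meis2, 7 to Meis3, 2 to Pbx2 and 35 to Pbx3.

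The ATAC-seq and CUT&Tag libraries came from wild-type C57BL/6 mouse embryos. ATAC-seq, which cuts DNA where chromatin is open, was performed on 3 libraries of Meckel's cartilage (MC), 3 of cartilage of the forelimb (FL), both at E14.5, and 2 of the E12.5 mandibular process. CUT&Tag for H3K27ac, an acetyl mark of active promoters and enhancers, was performed on 3 MC and 3 FL libraries at E14.5. MC is the rod of cartilage inside the forming lower jaw, and the mandibular process is the whole outgrowth from which it arises, so the E12.5 samples hold more tissues than cartilage. The cells were released by enzymes from dissected tissue, and the labels call the source chondrocytes. The labels do not say whether replicates came from separate litters or pools, so a p-value measures only the spread between these libraries. The description text of the E12.5 samples names another stage and assay, and their titles and protocols were followed.

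Meis and Pbx proteins are homeodomain transcription factors of the TALE class, named for extra amino acids in a loop of the homeodomain. They bind DNA together and act as partners of Hox proteins, and Meis binding helps carry Pbx into the nucleus. In the limb bud, Meis1 and Meis2 are known for their proximal expression, which retinoic acid promotes. In the head, Meis2 acts in cranial neural crest cells, which build Meckel's cartilage.

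ATAC and H3K27ac peaks parted at the starts of 2 of the genes, so 3 promoter sequences are shown first. Each is the 250 bases before an annotated start in RefSeq's GRCm38.p6 table, in which 4 of the 5 genes had an entry (Meis1, Meis2, Meis3 and Pbx2). Capitals would mark a match to the Meis core TGACAG or to TGATNNAT, a joint Pbx and Hox motif, on either strand. The 4 windows held 0 matches of either motif, while 15.9% of 32851 promoters of the same length held the first and 7.68% held the second. The first 2 sequences lay under H3K27ac in MC and under none in FL, and the Meis3 sequence lay under H3K27ac in both.
Meis1 (chr11:19018970-19019219, minus strand): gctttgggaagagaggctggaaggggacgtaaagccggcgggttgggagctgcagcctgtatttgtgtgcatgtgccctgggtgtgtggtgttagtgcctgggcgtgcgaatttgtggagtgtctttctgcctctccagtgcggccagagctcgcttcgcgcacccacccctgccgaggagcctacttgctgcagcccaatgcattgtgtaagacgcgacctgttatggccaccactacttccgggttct
Meis2 (chr2:116064620-116064869, minus strand): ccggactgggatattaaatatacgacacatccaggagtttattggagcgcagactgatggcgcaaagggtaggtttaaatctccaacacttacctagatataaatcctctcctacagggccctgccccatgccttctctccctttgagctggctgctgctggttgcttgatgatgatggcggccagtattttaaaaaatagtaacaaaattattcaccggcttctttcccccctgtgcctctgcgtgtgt
Meis3 (chr7:16175145-16175394, plus strand): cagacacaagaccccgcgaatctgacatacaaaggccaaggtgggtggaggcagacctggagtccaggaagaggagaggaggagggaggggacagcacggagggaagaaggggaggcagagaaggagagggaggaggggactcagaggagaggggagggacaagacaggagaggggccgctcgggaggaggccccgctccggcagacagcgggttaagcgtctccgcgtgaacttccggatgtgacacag
G and C made up 59.6% of the Meis1 window, 47.6% of the Meis2 window, 63.6% of the Meis3 window and 77.6% of the Pbx2 window.

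The lists differed in length, and their sequencing depth is unknown. The MC and FL ATAC lists covered 40.7 to 53.0 Mb, and the E12.5 lists covered 85.6 Mb (replicate 1) and 48.2 Mb (replicate 2). E12.5 replicate 1 therefore stands apart, and each list's cover per gene was brought to a common total. The authors' combined H3K27ac lists, 1 per tissue, hold 47549 peaks over 408 Mb in MC and 39914 peaks over 454 Mb in FL. They are pooled, with no SD, n or test. Listed total signal was at least 16925 in the combined MC list and at least 25799 in the combined FL list, but at most 3459 in any list of a single library. The combined and single-library H3K27ac lists thus hold different kinds of peaks and are reported apart. Of the cartilage genes, Col2a1, Acan, Sox9, Matn1, Col9a1 and Hapln1 all carried combined H3K27ac in MC and FL, with a summed cover of 479.6 and 521.5 kb. Matn1 was over 2-fold higher in FL (61.2 kb in MC, 151.5 kb in FL). All 5 endothelial markers carried the mark in both tissues too, so its presence does not identify cartilage. In bulk tissue, a mark in fewer cells and a weaker mark per cell cannot be told apart.

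Combined H3K27ac peaks covered far more sequence at Meis1, Meis2 and Pbx3 in MC than in FL, and the 5 genes split in this into 2 kinds. Meis2 carried 146 kb in 17 MC peaks, and FL listed it at 0. Meis1 carried 175.4 kb in 15 peaks in MC and 28.3 kb in 3 peaks in FL. Pbx3, which encodes a Pbx partner known from limb and neural development, carried 98.4 kb in 15 peaks in MC and 39.6 kb in 5 peaks in FL. Meis3, the third Meis gene, carried 5.80 and 5.75 kb in 1 peak each. Pbx2, a broadly expressed Pbx gene, carried 28.0 kb in MC and 46.8 kb in FL, also in 1 peak each.

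With both lists scaled to the same total, MC exceeded FL 6.80-fold at Meis1 and 2.74-fold at Pbx3 (both on values with 0.5 kb added to each). These are ratios of summed widths of peaks called apart in each tissue, and the Meis1 ratio was 27.8 when peaks over 100 kb from a gene were left out. The ratio was 1.11 at Meis3 and 0.67 at Pbx2, and none is given for Meis2, which was at 0 in FL. So 3 of the 5 genes were 2-fold or more higher in MC and 0 were 2-fold or more higher in FL. Among all 14359 genes with combined H3K27ac cover, 19.1% were 2-fold or more higher in MC and 15.9% in FL. The median log2 difference was 1.46 over the 5 genes and 0.04 over all genes. On this scale 0 of the 14359 genes lay above Meis2, 1786 lay above Meis1 and 2219 above Pbx3. For the 1883 genes at 0 in FL, Meis2 among them, the value is set by the 0.5 kb added. Such genes can outrank Meis1 on little cover: Stmn2, with 8.91 kb in MC, stood at a log2 difference of 4.31, and Meis1 at 2.77. The ranks use the cover seen before the genes were chosen and are a description only. Beside Meis2, only Btbd2 (112 kb) and Scaf1 (100.3 kb) carried at least 100 kb in MC and were listed at 0 in FL, and Ankrd23, Klc4 and Ifrd2 showed the reverse.

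**Figure D1:**
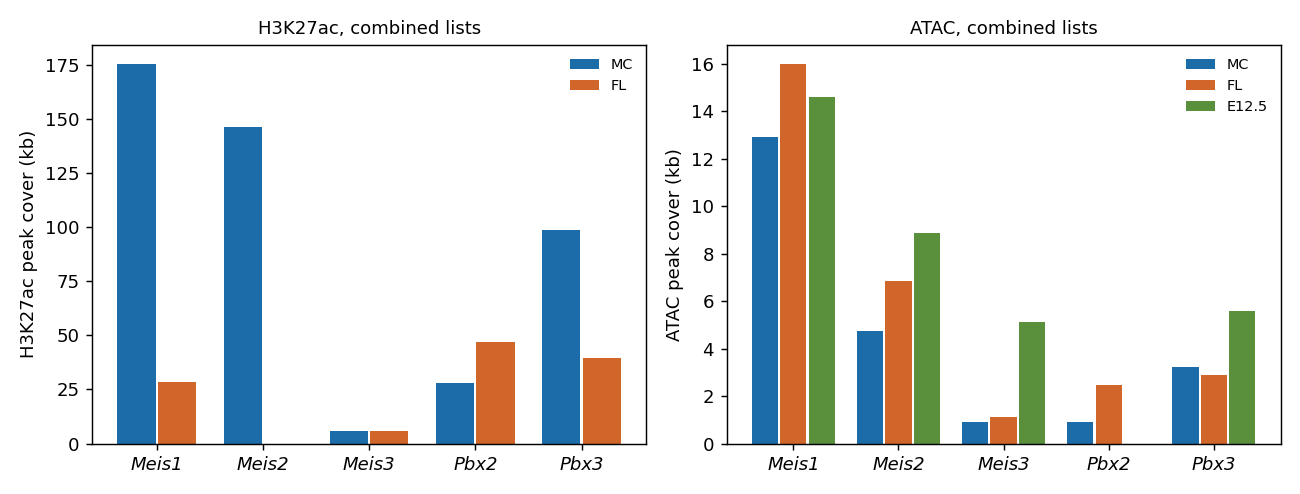
Kilobases of peaks assigned to each gene in the authors' combined lists, as deposited, for H3K27ac (left; MC and FL) and ATAC-seq (right; MC, FL and E12.5 mandibular process). The lists are pooled, so bars carry no error. H3K27ac at Meis1, Meis2 and Pbx3 stands at 175.4, 146 and 98.4 kb for MC and at 28.3, 0 and 39.6 kb for FL. The MC and FL ATAC bars of Meis1, Meis3 and Pbx3 lie closer together. Those of Meis2 stand at 4.74 kb for MC and 6.87 kb for FL, and those of Pbx2 at 0.932 and 2.45 kb. The E12.5 ATAC bars of Meis1, Meis2, Meis3, Pbx2 and Pbx3 stand at 14.6, 8.87, 5.13, 0 and 5.60 kb.

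The H3K27ac of Meis2 in MC ran along the gene. Its span (chr2:115861264-116067537) is 206.3 kb long, and 64.5% of it lay under MC peaks, 14 of which touched it. The widest, 24.8 kb at chr2:115872179-115896968, lay at the far 3′ part of the gene, and the next, 18.8 kb at chr2:116048799-116067590, covered the start end. In FL 0% of the span was covered. The nearest FL peaks lay 79.1 kb below and 866.8 kb above it in coordinates and were assigned to other genes. Of the 17 MC peaks, 13, with 129.2 kb, had a total signal at or above the lowest that the FL list holds.

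At Meis1 (chr11:18880428-19019651, 139.2 kb), 85.9% of the span lay under MC H3K27ac and 3.98% under FL H3K27ac. The widest MC peak spanned 43.6 kb inside the gene (chr11:18924094-18967690), and another of 37.7 kb (chr11:18991895-19029634) ran across the start. The only FL peak in the span, 5.54 kb at chr11:19011831-19017370, lay just inside the gene. It ended 0.691 kb short of the open region at the Meis1 start, so the statement that the start is acetylated in MC alone turns on this gap. The other FL peaks lay 286.6 and 448.8 kb upstream of the gene. The first overlapped an MC peak at chr11:19302166-19308494, and the second, at 15.4 kb the widest FL peak of Meis1, overlapped an MC peak of 2.91 kb. Of the 15 MC peaks, 9 reached the lowest total signal of the FL list.

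Pbx3 (chr2:34171457-34372045, 200.6 kb) showed its contrast within the gene. MC peaks lay over 25.3% of the span and FL peaks over 1.02%. At the higher-coordinate end both tissues had a peak, 6.48 kb in MC and 4.22 kb in FL. The 4 other FL peaks lay 14.0 to 138.6 kb beyond the lower end, where MC had 8 peaks. The widest peaks were 10.7 kb in MC, inside the gene, and 12.4 kb in FL, outside it. At the small genes the tissues looked alike: MC and FL peaks covered 31.4% and 19.2% of the short Meis3 span (chr7:16174012-16186510). The Pbx2 span (chr17:34592259-34597400, 5.14 kb) was covered whole in both. The single Pbx2 peak in each list extended over its neighbours, which lie 0.505 and 0.06 kb away. Counted base by base, Pbx2 held 5.42 kb in both tissues.

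**Figure D2:**
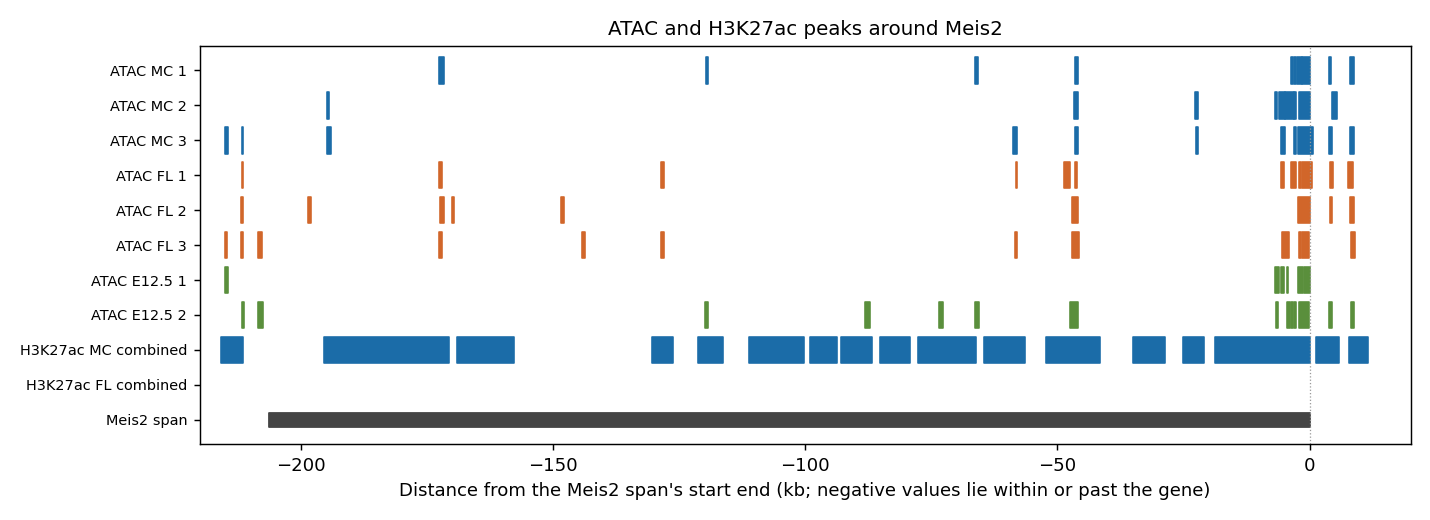
Peaks around Meis2, by distance in kb from the end of the span at which the gene starts; each row is 1 list (8 single-library ATAC lists, then the combined H3K27ac lists of MC and FL) and each block 1 peak. ATAC blocks stand at the start in all 8 rows, MC H3K27ac covers 64.5% of the span, and the FL H3K27ac row is empty.

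Markers of other tissues were read in the same lists. Of 4 neuron and glia markers, 3 were listed in MC and at 0 in FL: Stmn2 (8.91 kb), Elavl3 (6.77 kb) and Tubb3 (3.43 kb). The other, the neural crest and glia factor Sox10, carried 29.8 kb in MC and 39.7 kb in FL. Of all 14359 genes with combined H3K27ac cover, 1883 were at 0 in FL. By ATAC, Stmn2 had every MC library below every FL library (1.65 ± 0.52 against 3.88 ± 0.37 scaled kb, SD, n = 3 each; 8.98% of all genes). Tubb3 had every one above (1.79 ± 0.15 against 1.00 ± 0.08 kb; 9.16% of all), and Elavl3 and Sox10 overlapped. The summed ATAC cover of these 4 genes ranged from 5.17 to 15.4 kb in MC, 4.64 to 6.18 kb in FL and 8.50 to 20.1 kb at E12.5. Of the skeletal muscle markers, Myf5 carried 3.42 kb in MC and 0 in FL, Myog carried 14.8 and 13.8 kb, and Myod1 and Actc1 were at 0 in both. Epithelial and endothelial markers summed to 39.0 and 507.8 kb (MC) and to 64.1 and 630.3 kb (FL), and blood markers to 234.2 and 202.7 kb. The part of these cell types in the H3K27ac of Meis1, Meis2 and Pbx3 was not tested.

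Open chromatin of the same genes did not separate the cartilages. The text below gives ATAC peak cover in scaled kb per library. Meis2 stood at 8.36, 9.62 and 10.1 kb in MC replicates 1 to 3 and at 11.2, 7.63 and 10.9 kb in FL. The groups overlapped, with an MC mean of 9.37 ± 0.91 kb and an FL mean of 9.91 ± 1.98 kb (SD, n = 3 each). The log2 difference was -0.06 ± 0.49 (SE; limma adjusted p 1.0).

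Meis1 stood at 19.7, 15.2 and 17.7 kb in MC and at 26.4, 18.1 and 19.5 kb in FL. FL replicate 1 was highest, and the other FL libraries lay within or beside the MC range. The MC mean was 17.5 ± 2.25 kb and the FL mean 21.3 ± 4.47 kb (SD, n = 3 each). The log2 difference was -0.26 ± 0.49 (SE of the fit over all ATAC lists; limma adjusted p 1.0). Pbx3 stood at 4.77, 4.59 and 3.49 kb in MC and at 2.24, 5.69 and 2.66 kb in FL. Here FL replicate 2 lay above all MC libraries and the other FL libraries below them, and the log2 difference was 0.33 ± 0.46 (SE; limma adjusted p 1.0).

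Meis3 stood at 2.01, 2.42 and 1.30 kb in MC and at 1.07, 0.741 and 2.10 kb in FL, again overlapping (log2 difference 0.46 ± 0.45, SE; limma adjusted p 1.0). Pbx2 stood at 0.72, 3.21 and 0 kb in MC and at 2.02, 1.93 and 3.44 kb in FL, overlapping as well (log2 difference -1.14 ± 0.62, SE; limma adjusted p 1.0). The 0 of Pbx2 in MC replicate 3 is a matter of assignment, because the midpoint of the peak at its start fell outside the span. Counted base by base, that library held 1.38 kb there and the other MC libraries 1.00 and 1.41 kb, as listed.

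Across all 16176 genes tested, limma called 0 genes between MC and FL (0% at an adjusted p under 0.05; 815 at an unadjusted p under 0.05). All 3 MC libraries lay above all 3 FL libraries for 9.16% of genes and below them for 8.98%, and the 5 genes were among neither. The median log2 difference was -0.06 over the 5 genes and 0.03 over all genes. The SE of this fit pools the spread of all ATAC lists, the E12.5 libraries included, which lay far apart (Meis1 SD 12.8 kb). With only the MC and FL lists fitted, the SE ran from 0.19 at Meis1 and 0.20 at Meis2 to 0.61 at Pbx2. The limma adjusted p of the 5 genes was then 0.49 to 0.94. Limma again called 0 genes, with 2211 at an unadjusted p under 0.05. A missed threshold with 3 libraries per group leaves differences of this size unresolved.

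**Figure D3:**
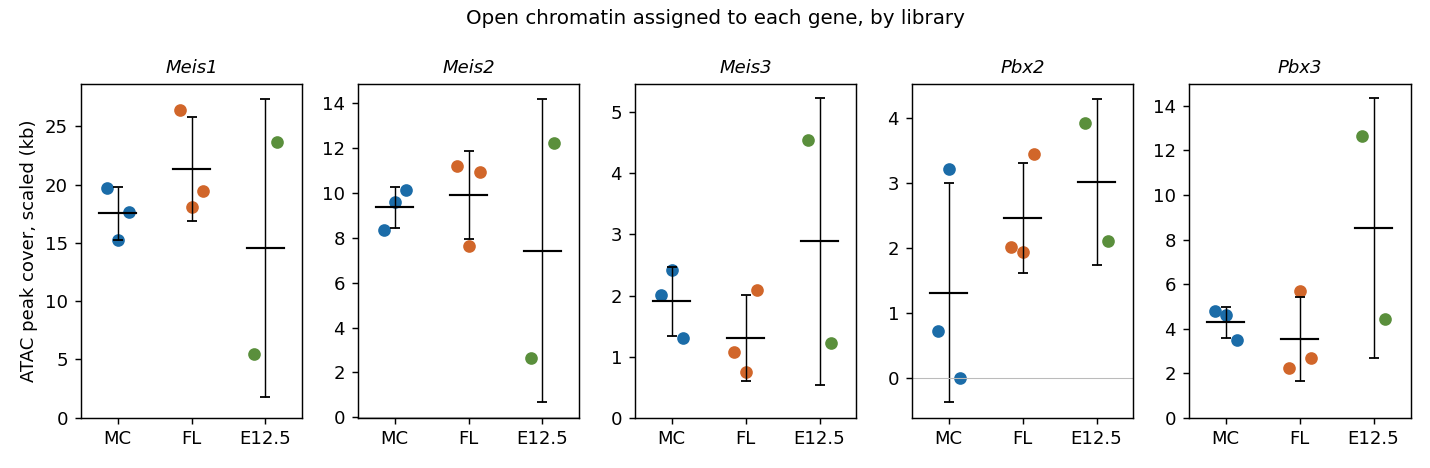
ATAC peak cover in kb, scaled to the same total per list, for each gene in each library (points) of MC, FL and the E12.5 mandibular process; black bars are means and whiskers SD (n = 3, 3 and 2). MC and FL points overlap for all 5 genes, and the E12.5 points of Meis1 lie at 5.50 kb, below every cartilage point, and 23.6 kb, within the FL range.

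Set beside each other, MC had more combined H3K27ac at Meis1 and Meis2, while the ATAC difference at both was smaller than its error in the main fit. At Meis2 the ATAC difference changed sign when single libraries were left out. At Meis1 it stayed negative, with FL higher, from -0.37 to -0.10 leaving out single libraries. With only the MC and FL lists fitted, Meis1 stood at -0.26 ± 0.19 (SE; limma adjusted p 0.61). The authors' combined ATAC lists gave 12.9 kb in MC and 16.0 kb in FL for Meis1, 4.74 and 6.87 kb for Meis2, and 3.23 and 2.88 kb for Pbx3. For Meis3 they gave 0.929 and 1.13 kb and for Pbx2 0.932 and 2.45 kb. Of 2526 genes that were 2-fold or more higher in MC for combined H3K27ac and measured by ATAC, 83.7% had overlapping ATAC libraries and 10.4% had every MC library above every FL library. Over all 16176 genes these shares were 81.9% and 9.16%, so the overlap at Meis1, Meis2 and Pbx3 is what most genes showed.

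**Figure D4:**
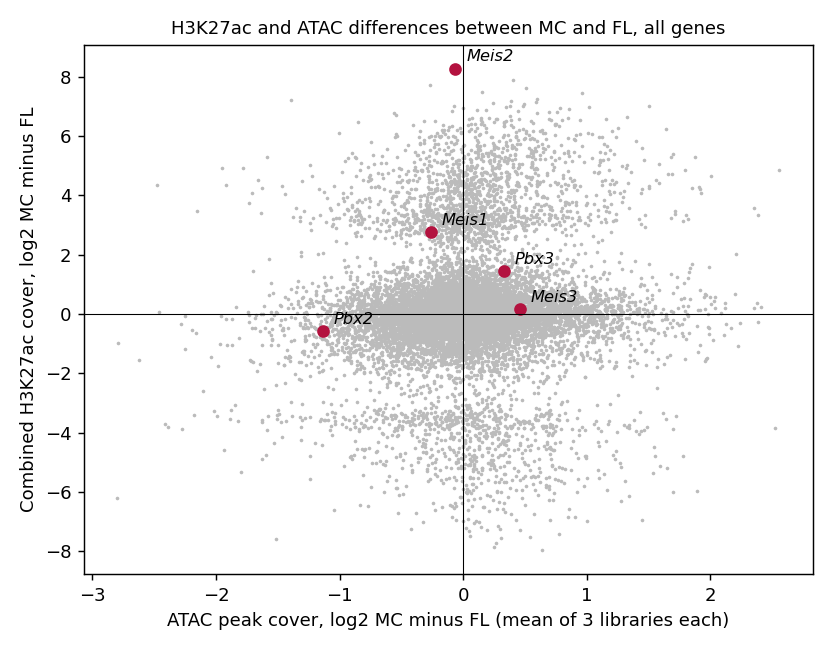
Each of 13624 genes by its ATAC difference (horizontal; log2 of scaled cover, mean of 3 MC minus mean of 3 FL libraries) and its combined H3K27ac difference (vertical; log2 of scaled cover, MC minus FL, pooled lists). Meis2, Meis1 and Pbx3 lie at 8.27, 2.77 and 1.46 on the vertical axis and between -0.26 and 0.33 on the horizontal one; the value of Meis2, listed at 0 in FL, is set by the 0.5 kb added.

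Where open regions and the mark met is described next, from the same combined H3K27ac lists, so these counts are no separate evidence. With Meis2 listed at 0 in FL, its count there could only be 0. Combined FL ATAC peaks assigned to the 5 genes numbered 31, and 5 of them (16.1%) overlapped FL H3K27ac. Of all combined FL ATAC peaks, 64.5% did. The same 31 FL peaks overlapped MC H3K27ac in 22 cases (71.0%), against 69.3% of all. By gene, 0 of 8 FL ATAC peaks of Meis2 overlapped FL H3K27ac and 8 of 8 overlapped MC H3K27ac. For Meis1 these counts were 2 and 9 of 18, and for Pbx3 1 and 3 of 3. The single FL ATAC peaks of Meis3 and of Pbx2 overlapped H3K27ac of both tissues.

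In MC, 19 of 26 combined ATAC peaks of the 5 genes (73.1%) overlapped MC H3K27ac, against 77.2% of all. The MC share came from 6 of 6 peaks at Meis2, 9 of 16 at Meis1, 2 of 2 at Pbx3 and 1 of 1 at Meis3 and at Pbx2. Only 4 of the 26 (15.4%) overlapped FL H3K27ac, against 69.8% of all MC ATAC peaks. Neighbouring ATAC peaks under 1 broad H3K27ac peak are not independent.

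Regions called in every library were few and lay mostly at gene starts. Of the 135 regions, 7 (5.19%) were called in all 8 ATAC lists, against 10.0% of all regions. They comprised 1 region at the start or end of each gene and 2 more at Meis1. The start region of Meis1 was chr11:19018062-19021354, that of Meis2 chr2:116065008-116068115 and that of Meis3 chr7:16174707-16176728. Pbx2 had chr17:34589386-34595119, and Pbx3 had chr2:34370745-34373581 at its higher-coordinate end. All 5 overlapped H3K27ac in MC. Those of Meis3, Pbx2 and Pbx3 overlapped it in FL too, and those of Meis1 and Meis2 did not.

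The authors' score ranks peaks within a list, and ranks from lists of unequal length (43205 to 70636 peaks in the cartilages) show no change between tissues. In the start region of Meis2 the best peak ranked 7081, 4104 and 2189 in MC and 5443, 4735 and 6773 in FL. In the start region of Meis1 it ranked 4821, 7548 and 9518 in MC and 883, 4802 and 2654 in FL. The peak over the printed Meis1 window was not always the best one of its region, and it ranked 9348, 16293 and 14459 in MC. The best peak of the Meis3 region ranked between 10525 and 23011 in the cartilage lists. The printed Meis2 window lies inside the annotated span, beside the start region. It was under an ATAC peak in all 3 MC libraries, in FL replicate 1 and in E12.5 replicate 2, and under none in FL replicates 2 and 3 and E12.5 replicate 1.

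The 2 other Meis1 regions called in all 8 lists lay outside the gene. One, chr11:18876124-18878420, lay 3.16 kb past the 3′ end and overlapped H3K27ac in MC alone. The other, chr11:19203645-19205033, lay 184.7 kb upstream and overlapped it in neither. Counting the 6 cartilage lists only, 9 regions of the 5 genes were called throughout. H3K27ac lay over 5 of the 9 in MC alone (11.2% of all such regions), over 3 in both tissues (73.8%), over 0 in FL alone (2.71%) and over 1 in neither (12.3%). The 5 with MC H3K27ac alone were 3 at Meis1 and 2 at Meis2, the latter being the start and chr2:116018828-116021846 inside the gene. The third at Meis1, chr11:19026290-19027806, lay 7.40 kb upstream of the start.

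**Figure D5:**
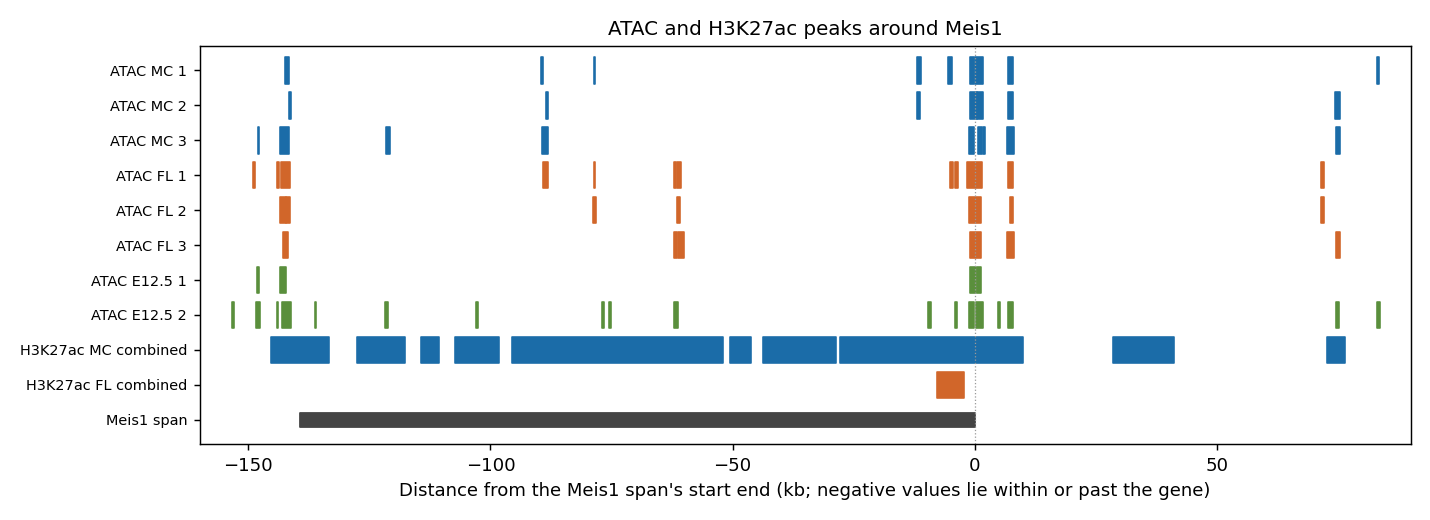
Peaks around Meis1, by distance in kb from the end of the span at which the gene starts; rows and blocks as for Meis2. ATAC blocks stand at the start in all 8 rows, MC H3K27ac covers 85.9% of the span and runs past the start, and the only FL H3K27ac peak in this window, 5.54 kb wide, ends short of the start.

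Few regions were called in one cartilage throughout and never in the other. Of the 135 regions, 3 (2.22%), all at Meis1, were called in all FL and no MC lists, near the 1.62% of all regions, and 0 were called in all MC and no FL lists, against 0.367%. The 3 were chr11:18531391-18532294, 348.6 kb past the 3′ end, chr11:18957560-18959574 inside Meis1, and chr11:19282270-19282978, 263 kb upstream. The region inside the gene lay under the widest MC H3K27ac peak, and none of the 3 lay under FL H3K27ac. The count rests on single libraries: it was 6 without MC replicate 3 or without FL replicate 3, and the count on the MC side was 3 without MC replicate 1 or FL replicate 1. The shares over all regions with a library left out are not given.

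The genes also differed in how scattered their open regions were. Meis1 lies in a wide interval without other protein-coding genes (the next, Etaa1 and Spred2, are 926.6 and 904.8 kb away), and 55 of its 67 regions lay outside the span, 41 of them more than 100 kb away. Meis2 had 16 of 24 regions inside its span. Pbx3 had 30 of 35 outside, up to 141.1 kb away. In all, 74 of the 135 regions (54.8%, against 52.1% of all regions) were called in 1 list only. At Pbx3 28 of 35 were, and 20 of those 28 came from E12.5 replicate 1.

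The comparison with the earlier mandibular process turned on which E12.5 library was read. Meis1 stood at 5.50 and 23.6 kb in E12.5 replicates 1 and 2, Meis2 at 2.64 and 12.2 kb, and Pbx3 at 12.7 and 4.41 kb. The first library lay below every cartilage library for both Meis genes and above them for Pbx3, and the second lay above every MC library for both Meis genes. Meis3 stood at 4.55 and 1.23 kb and Pbx2 at 3.92 and 2.11 kb. Against MC, the log2 differences (MC minus E12.5) ran from -1.37 ± 0.69 at Pbx2 to 0.64 ± 0.55 at Meis2 (SE; limma adjusted p 0.71 to 0.83). Against FL they ran from -1.09 ± 0.52 at Pbx3 to 0.84 ± 0.55 at Meis1 (limma adjusted p 0.40 to 0.85). The 2 comparisons share the E12.5 libraries.

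Of all 16176 genes, 0 (0%) were called by limma in either comparison, with 920 and 2044 at an unadjusted p under 0.05. None of the 5 genes separated MC or FL from E12.5. The libraries did not overlap for 18.4% of genes between MC and E12.5 and for 26.2% between FL and E12.5. Without E12.5 replicate 2, limma called 4106 genes against MC and 6344 against FL, on a lone E12.5 library taken to vary like the other groups. Meis1 (log2 1.58 against MC and 1.85 against FL) and Meis2 (1.65 and 1.71) then passed, higher in cartilage, with limma adjusted p of 0.011 against MC and 0.0036 and 0.0054 against FL. Meis3 and Pbx3 were called lower in FL (-1.56 and -1.80; limma adjusted p 0.034 and 0.022). Without E12.5 replicate 1, limma called 0 genes in either comparison, and Meis1 and Meis2 turned to -0.43 and -0.37 against MC. The combined E12.5 ATAC list gave 14.6 kb for Meis1, 8.87 kb for Meis2, 5.13 kb for Meis3 and 5.60 kb for Pbx3, and listed Pbx2 at 0 by midpoint (2.33 kb base by base).

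The single-library H3K27ac lists, most of whose peaks lay outside the combined ones, gave another picture. How well they track the mark was not tested. Here Pbx3 stood at 4.69, 2.75 and 4.62 scaled kb in MC and at 10.7, 10.1 and 9.46 kb in FL. The groups did not overlap, with FL higher, opposite to the combined lists (log2 MC minus FL -1.26 ± 0.38, SE; limma adjusted p 0.21). Meis1 stood at 17.8, 18.0 and 18.2 kb in MC and at 29.5, 21.0 and 24.4 kb in FL, also without overlap and with FL higher (-0.45 ± 0.23, SE; limma adjusted p 0.64). Meis2 stood at 17.6, 15.7 and 13.8 kb in MC and at 21.0, 13.1 and 20.6 kb in FL, overlapping (-0.19 ± 0.25, SE; limma adjusted p 0.89). All MC libraries lay below all FL libraries for 5.95% of the 8645 genes tested and above for 6.34%. Limma called 0 genes (0%; 671 at an unadjusted p under 0.05).

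Meis3 and Pbx2 fell under the 1 kb minimum of that fit, with 1 peak in MC replicate 3 and 1 in FL replicate 1 for Meis3, and 2 in MC replicate 2 for Pbx2. Yet the combined peaks over Pbx2 ranked 936 in MC and 668 in FL by total signal. Most single-library peaks lay outside the combined ones. Over all genes, 10.3 to 12.6% of MC library peaks lay in the MC combined list and 12.2 to 14.4% in the FL combined list, so they did not lie more often in that of their own tissue. For FL library peaks these shares were 9.70 to 11.8% and 10.7 to 12.6%. The combined lists cover 408 Mb (MC) and 454 Mb (FL), and the shares that randomly placed peaks would reach were not computed. At Meis2, 0 to 10.5% of MC and 13.8 to 33.3% of FL library peaks lay in MC combined peaks. In FL combined peaks 0% lay, which could not be otherwise, because the combined FL list has 0 peaks there. At Meis1, 0 to 18.2% of MC and 13.2 to 27.3% of FL library peaks lay in MC combined peaks, and 0% and 0 to 3.45% in FL ones. The H3K27ac contrast at Meis1, Meis2 and Pbx3 therefore rests on the pooled lists and has no replicate check.

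Other TALE genes were read in the same lists. Of Pbx4, Pknox1, Pknox2, Tgif1, Tgif2 and Mkx, 0 of 6 were 2-fold or more higher in MC for combined H3K27ac (19.1% of all genes) and 2 were so in FL (15.9% of all). These were Pbx4 (5.17 kb in MC, 26.3 kb in FL) and Tgif2 (12.3 and 38.4 kb), a repressor of the TGF-beta pathway. The median log2 difference of the list was -0.15. By ATAC, 0 of 6 were called by limma. Pbx4 had every MC library above every FL library (4.01 ± 1.31 against 1.21 ± 0.05 scaled kb, SD, n = 3 each; log2 difference 1.37, limma adjusted p 0.99), opposite to its H3K27ac.

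Of 12 retinoic acid genes, 0 were called by limma between MC and FL, 1 had every MC library above every FL library (9.16% of all genes) and 2 had every one below (8.98% of all). The libraries did not overlap for Cyp26b1, which degrades retinoic acid (MC 16.9 ± 2.21 scaled kb, FL 11.7 ± 0.17 kb), or for Dhrs3, a retinaldehyde reductase (2.67 ± 2.14 and 6.03 ± 1.41 kb). Nor did they for the receptor gene Rarb (13.8 ± 2.40 and 21.7 ± 2.95 kb; SD, n = 3 each). For combined H3K27ac, Aldh1a2, which makes retinoic acid, carried 15.3 kb in MC and 4.91 kb in FL. Cyp26a1, which degrades it, carried 8.55 and 38.02 kb, and these were the only 2 of the 10 covered genes past 2-fold, 1 each way (19.1% and 15.9% of all genes).

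Hox genes, whose proteins bind DNA with Meis and Pbx, were assigned combined H3K27ac peaks in FL alone, if any. A peak counts for 1 gene by its midpoint, so a gene at 0 may lie under a peak assigned to a neighbour. All 10 (Hoxa2, Hoxa9, Hoxa10, Hoxa11, Hoxa13 and Hoxd9 to Hoxd13) were at 0 in the combined MC H3K27ac list. In FL, Hoxa10 carried 38.7 kb, Hoxd10 15.0 kb and Hoxd11 4.39 kb. These 3 were the only ones with cover and were 2-fold or more higher in FL (15.9% of all genes). By ATAC, 5 of the 8 measured had every MC library below every FL library (8.98% of all genes), 0 were called by limma, and the median log2 difference was -1.57. The largest was Hoxa10, at 0 in each MC library and 3.07 ± 1.05 scaled kb in FL (SD, n = 3; log2 difference -2.80, limma adjusted p 0.58).

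By the pattern over the 8 ATAC lists, the genes most like Meis1 among 2639 with a mean of at least 5 kb were Fut8 (Pearson r 0.99), Dnajb9 (0.99) and Isl1 (0.99). Those most like Meis2 were Zdhhc21, Prss23 and Pde1c (each 0.99), and those most like Pbx3 were Ksr2 (0.98), Gm30733 (0.97) and Wnt4 (0.96). These values are over 8 lists of which E12.5 replicate 1 stands apart, and they carry no test. Meis3 and Pbx2 had a mean under 5 kb and were not compared.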

How the data were processed

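Peak lists on mm10 were used as deposited. Per the submitters' processing notes, reads passed through Trim Galore, Bowtie2 and SAMtools, and peaks were called with Genrich (ATAC-seq) and SEACR (CUT&Tag), with no versions or thresholds given. The deposited ATAC lists hold the authors' peak score (none under 200) and a -log10 p per peak. The deposited H3K27ac lists hold the authors' total signal and highest signal per peak. Scores and signals served only to rank or filter peaks within a list. Hi-C and 4C samples were not analysed here.

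Kilobases of peaks per gene were computed from the lists with gene spans of RefSeq GRCm38.p6 (mm10), scaled to the same total per list. Limma 3.58.1 (R 4.3.3, statmod 1.5.0; trended, robust) took log2 values with 0.5 kb added, with Benjamini-Hochberg adjustment over all genes and a threshold of 0.05. The minimum mean per gene was 0.3 kb for ATAC and 1 kb for H3K27ac, and all 8 ATAC lists entered 1 fit. ATAC peaks of the 8 lists that overlap were merged into regions, and a region counted as called in a list where a peak overlapped it. Within 1 kb of a span's end a region counted as lying at that end. Read depth is unknown. The limma fit was tested on simulated data, and the assignment of positions to genes was checked against the direct rule at random positions. Other steps ran in Python 3.11.15 (pandas 2.3.3, numpy 2.4.6; scipy 1.17.1; matplotlib 3.10.9 for figures).

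The genes, lists and tests were chosen with earlier results of these data known. The text names all 5 genes and the TALE, retinoic acid and Hox genes past 2-fold for combined H3K27ac. In the regions it names those at gene ends, those called in all lists of a group, and the widest H3K27ac peaks. Of the markers past 2-fold, Tek (4.77 kb in MC, 24.6 kb in FL) and Trp63 (2.69 and 11.1 kb) entered the sums only. Genes named for a lack of overlap between groups were chosen after their values were seen. One gene of the marker lists is not reported here.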

Additional observations from a re-analysis of the deposited data

How the results depend on the processing

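Of 327 values of single genes under an alternative, 306 kept their direction and side of the threshold. Limma called 0 genes in each main fit, so for its values keeping the side meant staying uncalled and shows little. The 3 genes 2-fold or more higher in MC for combined H3K27ac stayed 3 with 2 kb added, assignment within 100 kb, base-by-base assignment, no scaling, the same number of peaks per list and, added after the data were seen, only MC peaks reaching the lowest FL total signal. With assignment within 100 kb the log2 difference of Meis1 rose from 2.77 to 4.80. Base by base, Pbx2 moved from -0.58 to 0.14.

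The ATAC difference of Meis2 between MC and FL changed sign without MC replicate 1, FL replicate 1 or FL replicate 3, and ranged from -0.23 to 0.030 leaving out 1 library. Without E12.5 replicate 1, signs turned for MC minus E12.5 at Meis1 (-0.43 to 1.58 over the libraries left out), Meis2 (-0.37 to 1.65) and Meis3 (-1.10 to 0.44), and for FL minus E12.5 at Meis1 (-0.16 to 1.85), Meis2 (-0.31 to 1.71) and Pbx2 (-0.61 to 0.15). Pbx3 against MC turned to 0.086 with the same number of peaks per list. Pbx2 against FL turned to 0.52 with the number of peaks and to 0.0046 with a replicate block. Leaving out 1 library gave 0 limma calls for MC against FL, 0 to 4106 for MC against E12.5 and 0 to 6344 for FL against E12.5. The cause was not tested.

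For single-library H3K27ac, limma called 8 genes with 2 kb added and 0 to 39 leaving out 1 library (39 without MC replicate 3), none of them among the 5 genes. The better-ranked 50% of peaks of each list were also taken alone. Regions of the 5 genes in all MC and no FL lists then numbered 2, against 0 with full lists. Those in all 8 lists numbered 5, against 7. Leaving out 1 library gave 0 to 3 on the MC side and 3 to 6 on the FL side. The shares over all regions under these settings are not given, so the changed counts cannot be set against a background. A further setting kept only combined H3K27ac peaks at or above the median total signal of their list. Of the combined FL ATAC peaks of the 5 genes, 6.45% then overlapped FL H3K27ac (16.1% with all H3K27ac peaks). Of their combined MC ATAC peaks, 57.7% then overlapped MC H3K27ac (73.1% with all H3K27ac peaks). The shares over all ATAC peaks at this cut are not given, so these values have no background.

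The labels do not say whether replicate numbers pair the samples. Deviations of MC and FL libraries of the same number correlated at 0.04 to 0.05 (ATAC) and -0.02 to 0.04 (H3K27ac). Those of different numbers correlated at -0.05 to -0.004 (ATAC) and -0.05 to 0.06 (H3K27ac). Correlations this weak cannot settle the pairing. With the replicate number as a block, limma called 0 genes in each ATAC comparison and 13 for single-library H3K27ac. Depth is unknown, so peaks below the callers' thresholds cannot be judged.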
